A study of Mus musculus with 6 samples.

Results

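The genes described here encode the constitutive proteasome, measured in cells of 1 NIH3T3 clone. NIH3T3 is an immortalised line of mouse fibroblasts. Members were the probe sets that the array's annotation assigns to exactly 1 gene with a symbol of the form Psma, Psmb, Psmc, Psmd or Psme followed by a number, leaving out the immunoproteasome genes Psmb8, Psmb9 and Psmb10. This gave 48 of the 12488 probe sets, for 37 genes. The core particle had 19 probe sets for 14 genes, the regulatory cap 25 for 20 genes, and the activators 4 for 3 genes. The probe sets for Psme2 were not members because the annotation gives them a second gene, Psme2b. All the cells carry c-Myc and Ha-Ras under a Tet-off promoter and, made all the time, an IRF-1 protein fused to the estrogen receptor part that answers to estradiol. IRF-1 is a transcription factor of the interferon response. The 3 groups of 2 arrays were doxycycline (given at 2 µg/ml, which keeps the oncogenes off), withdrawal (without doxycycline, so that the oncogenes are on) and estradiol (also without doxycycline, plus estradiol at 1 mM as labelled, for 48 h). Replicate 1 of each group was extracted with RNeasy and replicate 2 with TRIzol. The second doxycycline array is titled with estradiol as well, whereas its treatment entry gives doxycycline only, and here it counts as doxycycline. The groups share 1 clonal line and the labels name no separate cultures. The p-values thus reflect the spread between arrays, which may be technical.

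The proteasome is the protease that degrades proteins tagged with ubiquitin. Its core is a barrel of alpha rings, which gate the entry, and beta rings, which hold the proteolytic sites. The cap recognises tagged proteins, removes the tag, unfolds them with a ring of ATPases and feeds them into the core. Activators bind the same ends of the core and open the gate without ATP or ubiquitin. In an interferon response the catalytic beta subunits are exchanged for immunoproteasome subunits, and the activator made of Psme1 and Psme2 is induced along with them.

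Values are MAS5 signals, the brightness of a probe set on a linear scale, and cannot be set against each other between probe sets. Differences are given as log2 fold changes of signal + 32, tested with limma over 7453 probe sets. Of the 48 member probe sets, 43 passed the filter on dim signals, covering 36 genes, and the other 5 had signals of at most 31.2 on every array. Psmd2, a scaffold of the cap, was read only by such a dim probe set. Of the 43, 6 carry the suffix f and 1 the suffix s in their names, which mark probes shared with similar transcripts, so their values (Psma3, Psmb4, Psmb5, Psmb7, Psmc3 and Psmd12 among the genes named below) may include a related sequence. Another 2 carry the suffix r (for Psmd9 and Psmd11) and 1 the suffix i (for Psmc3, at its largest value below). These suffixes mark designs that met fewer probe rules. Fibroblast markers were bright, with summed signals of 14949 to 25445 over 9 genes. Endothelial markers summed to 63.0 to 110.1 over 5 genes, of which 0 passed the filter, epithelial ones to 144.6 to 223 over 5 (2 passed) and leukocyte ones to 520.3 to 569.7 over 6 (3 passed). The fibroblast sums were 25445 and 24385 on the doxycycline arrays, 19522 and 22695 on the withdrawal arrays and 19546 and 14949 on the estradiol arrays. The 3 arrays with the lowest sums (withdrawal replicate 1 and both estradiol arrays) are those with high proteasome signals below, and the part of this in the results was not tested. Vim, a defining fibroblast marker, had a signal of at most 40.7 in its 1 probe set.

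Similarity between the arrays followed the labels only in part. For the proteasome probe sets, withdrawal replicate 1 and estradiol replicate 1 differed by a median of 0.05 on the log2 scale, and 0 of 43 differed at least 2-fold, against 16 of all 7453 tested probe sets. The withdrawal replicates differed from each other by a median of 0.51, and 9 of 43 differed at least 2-fold, as did 920 of 7453. Whether these arrays carry the right labels was not tested. The doxycycline replicates differed by a median of 0.20 (1 of 43 at least 2-fold, and 283 of 7453) and the estradiol replicates by 0.27 (1 of 43, and 250 of 7453). Comparisons with the withdrawal group are therefore given with and without each of its arrays. The 3 comparisons share arrays, so their values are given side by side and not set against each other.

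The proteasome genes were high on withdrawal replicate 1 and on both estradiol arrays, and low on both doxycycline arrays and on withdrawal replicate 2. Relative to each probe set's mean over the 6 arrays, the median member lay at 0.28 on withdrawal replicate 1, 0.20 on estradiol replicate 1 and 0.21 on estradiol replicate 2. It lay at -0.27 and -0.21 on doxycycline replicates 1 and 2 and at -0.24 on withdrawal replicate 2. The same medians over all tested probe sets lay between -0.02 and 0.01. The highest signal fell on estradiol replicate 2 in 15 of 43 members, on withdrawal replicate 1 in 14 and on estradiol replicate 1 in 9, on doxycycline replicate 2 in 3, and on doxycycline replicate 1 and withdrawal replicate 2 in 1 each. Over all tested probe sets the shares were 21.5%, 11.1%, 11.4%, 20.2%, 13.8% and 22.0% in the same order. Core and cap medians lay on the same side of 0 on each array, in differing orders. The core medians were -0.31 and -0.24 for doxycycline, 0.26 and -0.25 for withdrawal and 0.25 and 0.35 on the estradiol arrays. The cap medians were -0.18 and -0.22, 0.31 and -0.24, and 0.20 and 0.14. In bulk RNA, a change in the share of cells and a change in RNA per cell cannot be told apart.

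**Figure D1:**
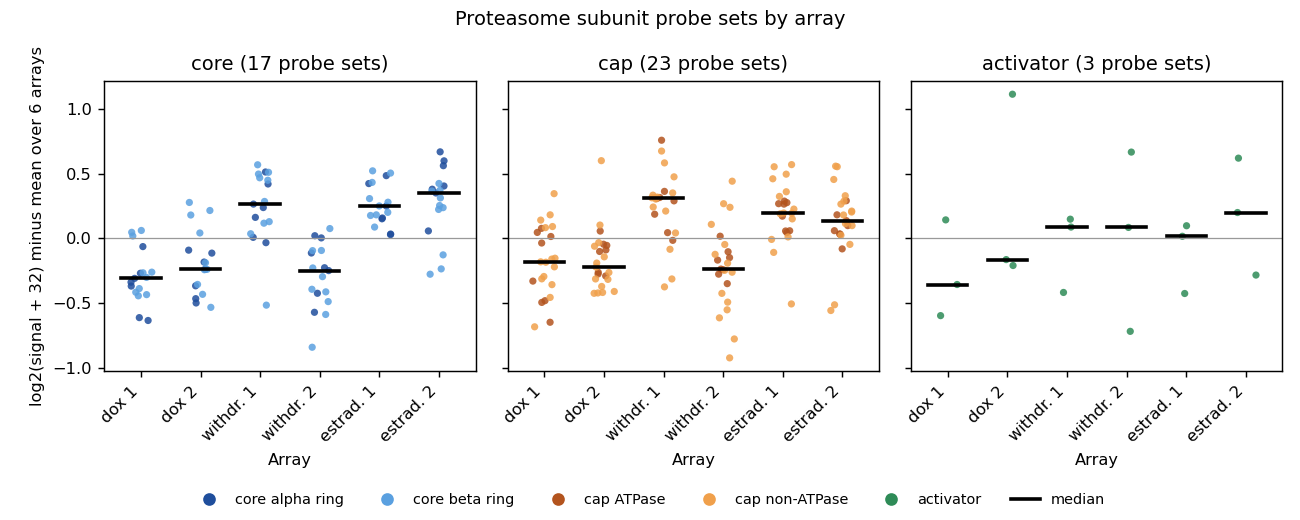
Each point is 1 proteasome probe set on 1 array, as log2(signal + 32) minus its mean over the 6 arrays, and black bars are medians. In core and cap the medians are above 0 on withdrawal replicate 1 and both estradiol arrays and below 0 on the other 3, and among the 3 activator probe sets Psme1 is highest on doxycycline replicate 2.

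The estradiol group was set against the doxycycline group first, since the replicates of these groups lay closest together for the proteasome genes. The groups differ in the oncogenes, in doxycycline and in estradiol, which cannot be told apart. Higher signals with estradiol were seen for 37 of 43 members (50.4% of all tested probe sets were higher), and the median member stood at 0.44 against 0.0035 for all tested probe sets. In replicate 1 the median was 0.46 and 40 of 43 were higher (52.2% of all tested probe sets), and in replicate 2 it was 0.47 with 35 higher (50%). In both replicate numbers 34 were higher (33.2%) and 2 lower (30.9%). Both estradiol arrays lay above both doxycycline arrays in 34 members, against 27% of all tested probe sets, and below them in 0, against 24.7%. Set against doxycycline replicate 1 alone, without the array titled with estradiol, both estradiol arrays lay above it in 37 of 43, against 38.8% of all tested probe sets. No member passed the test after adjustment (limma, 0 of 43, with 0% of all tested probe sets called), and the smallest adjusted p was 0.257. Without withdrawal replicate 1 or 2, which bear on this comparison through the shared spread, 131 and 133 of 7453 probe sets were called and 0 of the members, whose smallest adjusted p was 0.0828 and 0.0832. Without doxycycline replicate 1, 28 probe sets and 0 members were called. At an unadjusted p under 0.05 there were 6 members, all higher, which is 14% of 43 and equals the 14% of all tested probe sets.

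In the alpha ring, 7 of 7 genes were higher with estradiol in both replicate numbers (33.2% of all tested probe sets), with a median of 0.57. All of them had both estradiol arrays above both doxycycline arrays (27% of all tested probe sets). Psma6 had signals of 1500 and 1870 on the estradiol arrays against 811.8 and 901.9 on the doxycycline arrays (log2 fold change 0.94, SE 0.28, adjusted p = 0.257). Psma3 had 1592 and 2292 against 910.7 and 1103 (0.91, SE 0.30, adjusted p = 0.282). For both genes the lower estradiol array was well above the higher doxycycline array. Psma7 stood at 0.77 (SE 0.34), Psma1 at 0.57 (SE 0.28), Psma2 at 0.54 (SE 0.29) and Psma5 at 0.51 (SE 0.39). Psma4 had the smallest difference of the ring, with 880.3 and 1148 against 821 and 804.9 (0.30, SE 0.28).

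The beta ring holds the proteolytic sites in Psmb5 (chymotrypsin-like), Psmb6 (caspase-like) and Psmb7 (trypsin-like). Psmb7 had signals of 681.4 and 618.5 on the estradiol arrays against 345.2 and 315.9 on the doxycycline arrays (0.91, SE 0.34, adjusted p = 0.307). Psmb6 had 728 and 739.9 against 519.9 and 527.1 (0.46, SE 0.37, adjusted p = 0.605). Psmb5, read by its brighter probe set, showed 582.9 and 744.4 against 449.4 and 420.4 (0.57, SE 0.27, adjusted p = 0.386). In none of the 3 catalytic genes did the estradiol and doxycycline arrays overlap in these probe sets, while the dimmer Psmb5 probe set overlapped, with 82.1 and 47.2 against 39 and 76.7 (0.11, SE 0.36). Of the structural beta subunits, Psmb3 stood at 0.73 (SE 0.38) and did not overlap. Psmb2 had 1352 and 907.5 on the estradiol arrays against 1028 and 1024 (0.11, SE 0.43, adjusted p = 0.940), which overlapped. Probe sets of 1 gene disagreed for Psmb1, at 0.64 (SE 0.28) in one and -0.14 (SE 0.30) in the other, where the signals were 1312 and 974.6 against 1168 and 1344. Psmb4 gave 0.56 (SE 0.27) in its bright probe set, with signals from 1213 to 2064, and 0.13 (SE 0.24) in a dim one, with signals from 12.8 to 47.5. The ring's median was 0.51, with 9 of 10 probe sets higher (50.4% of all tested probe sets). In 7, both estradiol arrays lay above both doxycycline arrays (27% of all tested probe sets). The 7 include the dim Psmb4 probe set by a small margin, at 45.7 on estradiol replicate 1 against 45.6 on doxycycline replicate 2.

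**Figure D2:**
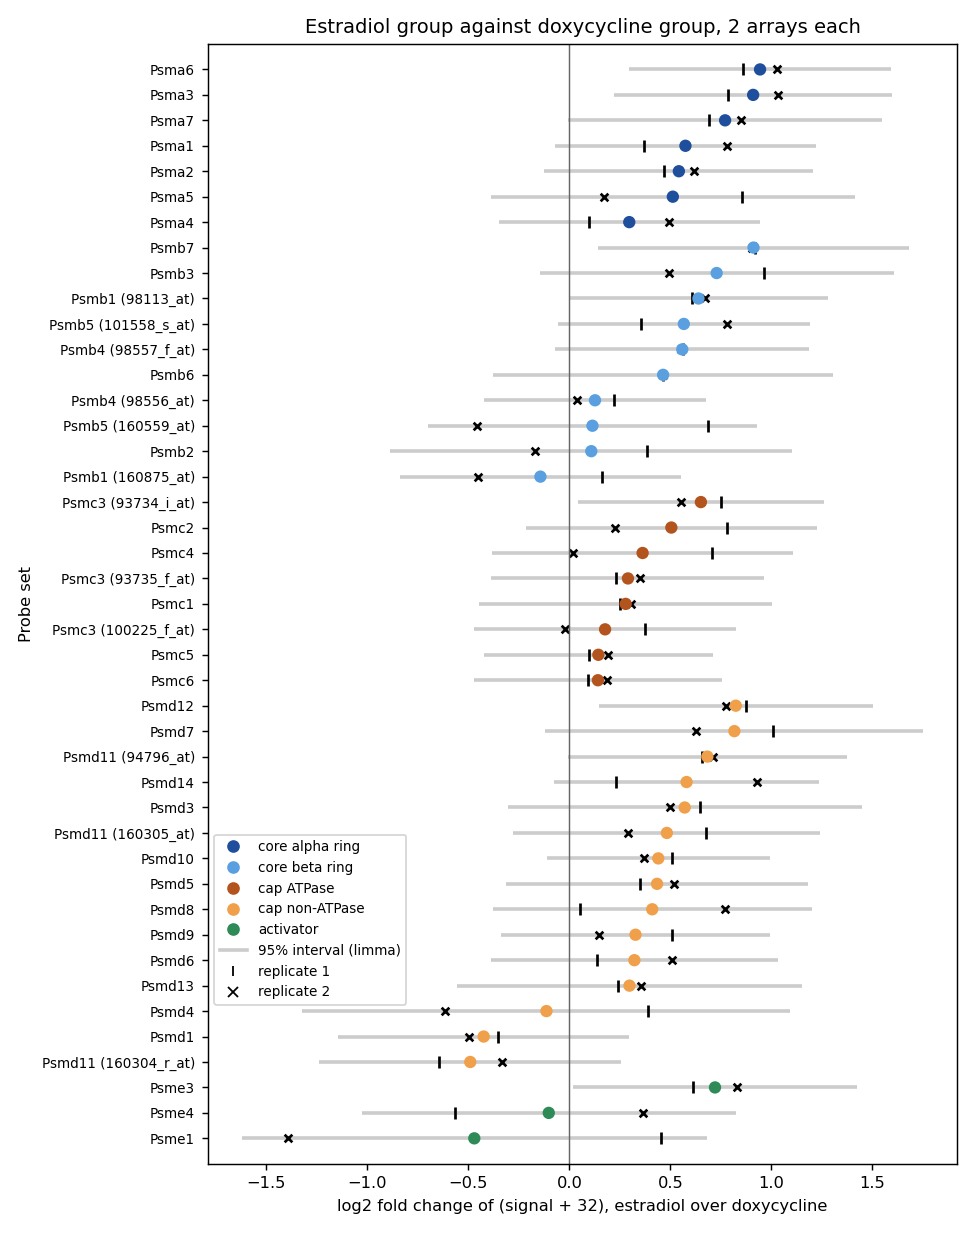
Log2 fold change of each tested proteasome probe set, estradiol over doxycycline (2 arrays each), by part of the particle. Circles are the fitted value, grey bars the 95% interval, and black marks the fold change in each replicate number; 37 of 43 circles lie above 0.

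Within the cap, the ATPases that unfold substrates were higher in 8 of 8 probe sets (50.4% of all tested probe sets), with a median of 0.28. Psmc3 stood at 0.65 (SE 0.27, adjusted p = 0.339) in 1 of its probe sets, with signals of 212.3 and 216.2 against 113.4 and 137.2, and at 0.29 and 0.18 in its others. Psmc2 stood at 0.50 (SE 0.31), Psmc4 at 0.36 (SE 0.33), Psmc1 at 0.28 (SE 0.32), and Psmc5 and Psmc6 both at 0.14 (SE 0.25 and 0.27). The non-ATPase subunits were higher in 12 of 15 probe sets (50.4% of all tested probe sets), with a median of 0.43. Psmd12, a subunit of the lid, had 325.9 and 428.6 against 163.6 and 237.2 (0.82, SE 0.30, adjusted p = 0.301). Psmd7, another lid subunit, had 1178 and 917.6 against 569.5 and 584 (0.82, SE 0.41, adjusted p = 0.403). The lowest estradiol array lay above the highest doxycycline array for both genes. Psmd14, the enzyme that takes ubiquitin off the substrate, had 202.6 and 310.6 against 167.9 and 148 (0.58, SE 0.29). The lid subunits Psmd11 (0.68 in its brightest probe set), Psmd3 (0.57), Psmd8 (0.41), Psmd6 (0.32) and Psmd13 (0.30) had both estradiol arrays above both doxycycline arrays. So did the assembly chaperones Psmd10 (0.44), Psmd5 (0.43) and Psmd9 (0.33). In the whole cap this held for 19 of 23 probe sets, against 27% of all tested probe sets. The 19 include the dim Psmc4 by a small margin, at 40.7 on estradiol replicate 2 against 39.7 on doxycycline replicate 2.

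The cap's exceptions were the ubiquitin receptor Psmd4, the scaffold Psmd1 and 1 probe set of Psmd11. Psmd4 was lower in replicate 2 than in replicate 1 of every group, and the part of the extraction method in this was not tested. Its signals were 1797, 2383 and 2361 in replicate 1 of the doxycycline, withdrawal and estradiol groups, and 1700, 819.1 and 1099 in replicate 2. Its log2 fold change was -0.11 (SE 0.53), with 0.39 in replicate 1 and -0.62 in replicate 2. Psmd1 had 940.6 and 632.9 on the estradiol arrays against 1210 and 905.8 on the doxycycline arrays (-0.42, SE 0.31, adjusted p = 0.579), lower in both replicate numbers. The third Psmd11 probe set, of a design that meets fewer probe rules, had 42.4 and 94.9 against 84.5 and 128.1 (-0.49, SE 0.33).

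The activators Psme1, Psme3 and Psme4 were highest on 3 different arrays: doxycycline replicate 2, estradiol replicate 2 and withdrawal replicate 2. Promoter stretches of the activators and of the catalytic genes Psmb5 and Psmb6, which hold the same motif as Psme4, are shown here, since the series turns on IRF-1 and Myc. They come from RefSeq (GRCm38.p6), from 100 bases before to 20 after the annotated start, and 31 of the 37 member genes had an entry. Psmb1, Psmb2, the catalytic gene Psmb7, Psmc3, Psmd3 and Psmd7 had none and were not searched. Capitals mark the core of an interferon-stimulated response element (ISRE, searched as GAAA, any 2 bases and GAAA again, here on the reverse strand) in Psme1, an E-box (CACGTG), the site that Myc binds, in Psme3, and the core of an antioxidant response element (ARE, TGACNNNGC), the site of the Nrf factors that induce proteasome genes, in the others, on the reverse strand in Psme4.
Psme1, chr14:55578394-55578513, + strand: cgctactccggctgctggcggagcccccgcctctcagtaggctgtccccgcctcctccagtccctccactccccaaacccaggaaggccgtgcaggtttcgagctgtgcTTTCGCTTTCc
Psme3, chr11:101316113-101316232, + strand: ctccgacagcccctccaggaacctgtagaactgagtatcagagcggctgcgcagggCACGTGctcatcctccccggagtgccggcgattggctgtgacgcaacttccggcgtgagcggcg
Psme4, chr11:30771675-30771794, + strand: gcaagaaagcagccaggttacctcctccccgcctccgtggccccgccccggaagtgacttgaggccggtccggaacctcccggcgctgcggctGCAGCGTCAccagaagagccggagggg
Psmb5, chr14:54617976-54618095, - strand: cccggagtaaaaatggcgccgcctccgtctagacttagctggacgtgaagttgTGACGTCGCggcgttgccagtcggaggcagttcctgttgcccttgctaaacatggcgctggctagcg
Psmb6, chr11:70525257-70525376, + strand: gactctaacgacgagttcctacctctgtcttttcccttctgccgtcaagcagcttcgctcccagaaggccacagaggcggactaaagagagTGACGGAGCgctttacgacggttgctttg
Both strands were searched in windows of 300 bases, 250 before and 50 after the start, and the sole overlap between matches of different motifs was that of an ARE core and a GC box in Psmd9, by 4 bases. The ISRE core was in 4 of the 33 member windows (Psmb3, Psmd4, Psmd9 and Psme1), or 12.1%, against 3.44% of 32851 windows of all genes. In Psme1 it lay 10 to 19 bases after the start. The windows of Psmb8, Psmb9, Psmb10 and Psme2, which are not members, held no match of the ISRE core. The ARE core was in 6 windows (Psmb5, Psmb6, Psmc6, Psmd9, Psmd12 and Psme4), or 18.2% against 12.4%, and the E-box in 3 (Psma4, Psmd9 and Psme3), or 9.09% against 7.15%. The GC box (GGGCGG) was in 20, or 60.6% against 35.7%, the CCAAT box (CCAAT) in 12, or 36.4% against 37.4%, and the interferon gamma site (GAS, TTCNNNGAA) in 1, Psmd2, or 3.03% against 8.3%. These are matches of letters and not measured binding sites.

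Psme3, which makes the nuclear activator that works alone, was lowest on the doxycycline arrays. Its signals were 295.6 and 465.6 on the estradiol arrays, 312.2 and 311.5 on the withdrawal arrays, and 182.3 and 248.2 on the doxycycline arrays. Both other groups lay wholly above the doxycycline arrays, which held for 27% of all tested probe sets with estradiol and 16.8% with withdrawal. On the log2 scale Psme3 stood at 0.72 (SE 0.31, adjusted p = 0.348) for estradiol against doxycycline and 0.49 (SE 0.31, adjusted p = 0.930) for withdrawal against doxycycline. Psme4, another nuclear activator, had 199.9 and 325.6 on the estradiol arrays, 201.2 and 462.1 on the withdrawal arrays and 311.8 and 246 on the doxycycline arrays. It was lower in replicate 1 and higher in replicate 2 when either group was set against doxycycline, with -0.10 (SE 0.40) for estradiol and 0.13 (SE 0.40) for withdrawal.

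Psme1, the interferon-induced activator, was highest on doxycycline replicate 2, the array titled with estradiol. Its signals were 383.1 and 1117 on the doxycycline arrays, 556.7 and 291.1 on the withdrawal arrays, and 536.4 and 404.6 on the estradiol arrays. For estradiol against doxycycline its log2 fold change was -0.47 (SE 0.50, adjusted p = 0.707). Replicate 1 alone stood at 0.45 and replicate 2 at -1.40, and the value was 0.26 without doxycycline replicate 2. The genes beside it in the interferon response had the same highest array: the immunoproteasome subunit Psmb9 had 501.3 on doxycycline replicate 2 against 17.4 to 126.9 on the other arrays, and Psmb10 had 802.5 against 161.6 to 643. For withdrawal against doxycycline Psmb9 stood at -1.53 (SE 0.73, adjusted p = 0.925), from 0.37 in replicate 1 and -3.43 in replicate 2. For estradiol against withdrawal Psmb10 stood at 0.86 (SE 0.65, adjusted p = 1.00), from -0.09 in replicate 1 and 1.80 in replicate 2, so each pooled value came from replicate 2. Psmb8 was dim on every array, at 7.9 to 28.7, and its highest value was also there. The brighter probe set shared by Psme2 and Psme2b had 493.2 on that array against 292.3 to 371.5 elsewhere. Between the 2 doxycycline arrays, Psme1 was the single member that differed at least 2-fold.

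**Figure D3:**
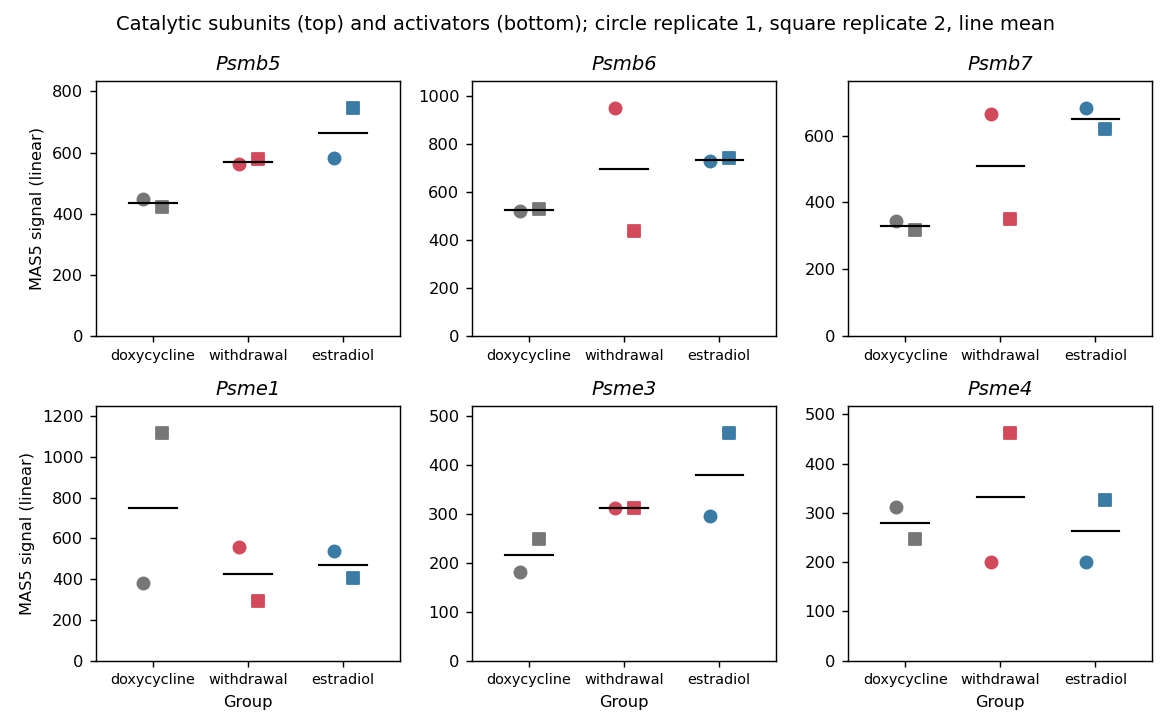
MAS5 signals on a linear axis from 0 for the catalytic subunits (top, Psmb5 in its brighter probe set) and the activators (bottom, Psme1 in its brighter probe set) in the 3 groups; circles are replicate 1, squares replicate 2 and lines the mean of 2 arrays. Both estradiol arrays lie above both doxycycline arrays for Psmb5, Psmb6, Psmb7 and Psme3, and Psme1 peaks on doxycycline replicate 2 at 1117.

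The withdrawal group was set against the doxycycline group to ask what the oncogenes change, with doxycycline itself differing too. In replicate 1, 37 of 43 members were higher (51.6% of all tested probe sets) with a median of 0.53, and in replicate 2, 21 of 43 (52.1%) with a median of -0.07. The difference between the replicate numbers was not tested. Pooled, 32 of 43 members were higher (51.8% of all tested probe sets), and the median member stood at 0.26 against 0.0141 for all tested probe sets. In both replicate numbers 18 were higher (25.8%) and 3 lower (22%). The medians were 0.29 for the core, 0.19 for the cap and 0.13 for the activators. Without withdrawal replicate 1 the median was -0.04, with 20 of 43 higher, and without withdrawal replicate 2 it was 0.49, with 36 of 43 higher. Both withdrawal arrays lay above both doxycycline arrays in 15 members (16.8% of all tested probe sets) and below in 2 (15%). No member passed (limma, 0 of 43, with 0% of all tested called, smallest adjusted p = 0.925), and 4 of 43 had an unadjusted p under 0.05, or 9.3% against 4.37%. Without doxycycline replicate 1, 26 of 7453 probe sets and 0 members were called.

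Among single genes of this comparison, Psmd10, an assembly chaperone of the cap base also known as gankyrin, was about as high in both replicate numbers. It had signals of 102.2 and 97.9 on the withdrawal arrays against 54.9 and 48.8 on the doxycycline arrays (0.66, SE 0.24, adjusted p = 0.925). Psma6 had 1517 and 1261 against 811.8 and 901.9 (0.67, SE 0.28, adjusted p = 0.925), and Psma3 had 1605 and 1452 against 910.7 and 1103 (0.59, SE 0.30). Those 3 genes had both withdrawal arrays above both doxycycline arrays, as did 16.8% of all tested probe sets. Psmc4 had the largest value, with 98 and 45.8 against 17.1 and 39.7 (0.76, SE 0.33, adjusted p = 0.925), most of it on withdrawal replicate 1. At the other end, Psmb4 in its dim probe set showed 12.8 and 16.1 against 34.8 and 45.6 (-0.63, SE 0.24), while the bright one gave 0.31 (SE 0.27), and the third Psmd11 probe set, with 49.5 and 65 against 84.5 and 128.1, gave -0.62 (SE 0.33) against 0.40 in the brightest. Psme1 stood at -0.66 (SE 0.50) and at 0.07 without doxycycline replicate 2. Psmd4 stood at -0.31 (SE 0.53), or 0.44 without withdrawal replicate 2. Psmb2 had 1369 and 541.2 against 1028 and 1024 (-0.24, SE 0.43), or 0.40 without withdrawal replicate 2. Of the catalytic genes, Psmb7 had 663.7 and 351.2 on the withdrawal arrays (0.51, SE 0.34), Psmb5 had 561.3 and 578 (0.37, SE 0.27) and Psmb6 had 948.2 and 439.5 (0.29, SE 0.37). Both withdrawal arrays lay above both doxycycline arrays for Psmb5 and, on replicate 2 by a small margin, for Psmb7, while Psmb6 overlapped.

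Estradiol was set against withdrawal alone to ask what activating IRF-1 changes while the oncogenes are on. Estradiol itself differed too, and all the cells carry the fusion, so its own effect and that of IRF-1 cannot be told apart. The median log2 fold change was -0.01 in replicate 1 (18 of 43 higher, 51.6% of all tested probe sets) and 0.45 in replicate 2 (38 of 43 higher, 50.6%), and the difference between these was not tested. Pooled, 37 of 43 members were higher (51% of all tested probe sets), with a median of 0.23 against 0.0064 for all tested probe sets, and medians of 0.30 for the core, 0.20 for the cap and 0.19 for the activators. In both replicate numbers 18 were higher (26%) and 5 lower (23.7%). Without withdrawal replicate 2 the median was -0.03, with 16 of 43 higher, and without withdrawal replicate 1 it was 0.42, with 38 of 43 higher. Groups did not overlap in 9 members, 7 higher (11.5% of all tested probe sets) and 2 lower (10.2%). No member passed (limma, 0 of 43, with 0% of all tested called, smallest adjusted p = 1.00), and 1 had an unadjusted p under 0.05 (0.698% of all tested probe sets). Without withdrawal replicate 1 that group holds 1 array, and no count of members by p is read from that fit here. The single member at that p with all arrays was the dim Psmb4 probe set, with 45.7 and 47.5 against 12.8 and 16.1 (0.76, SE 0.24), against 0.25 in the bright one.

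Of the named genes in this comparison, Psmd13 of the lid had signals of 405.3 and 372.3 on the estradiol arrays against 399.1 and 172 on the withdrawal arrays (0.50, SE 0.37), and Psmb3 had 2438 and 2020 against 2396 and 1114 (0.43, SE 0.38). In both the estradiol arrays and withdrawal replicate 1 were close and withdrawal replicate 2 was low. Psmd3, a lid subunit, had 1831 and 1503 against 1850 and 853.3 (0.39, SE 0.38), again with withdrawal replicate 2 lowest. Psmb7 stood at 0.40 (SE 0.34), Psma7 at 0.39 (SE 0.34), Psmb5 at 0.20 (SE 0.27) and Psmb6 at 0.17 (SE 0.37). The lowest core values were those of the dimmer Psmb5 probe set, with 82.1 and 47.2 against 104.6 and 49.9 (-0.15, SE 0.36), and of the lower Psmb1 probe set, with 1312 and 974.6 against 1253 and 933.7 (0.06, SE 0.30), and both overlapped. Psme3 stood at 0.23 (SE 0.31), Psme1 at 0.19 (SE 0.50) and Psme4 at -0.24 (SE 0.40). The lower values were Psmd1, with 940.6 and 632.9 against 974.8 and 1123 (-0.42, SE 0.31), and Psmc4, with 48 and 40.7 against 98 and 45.8 (-0.40, SE 0.33). All adjusted p-values here were 1.00.

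**Figure D4:**
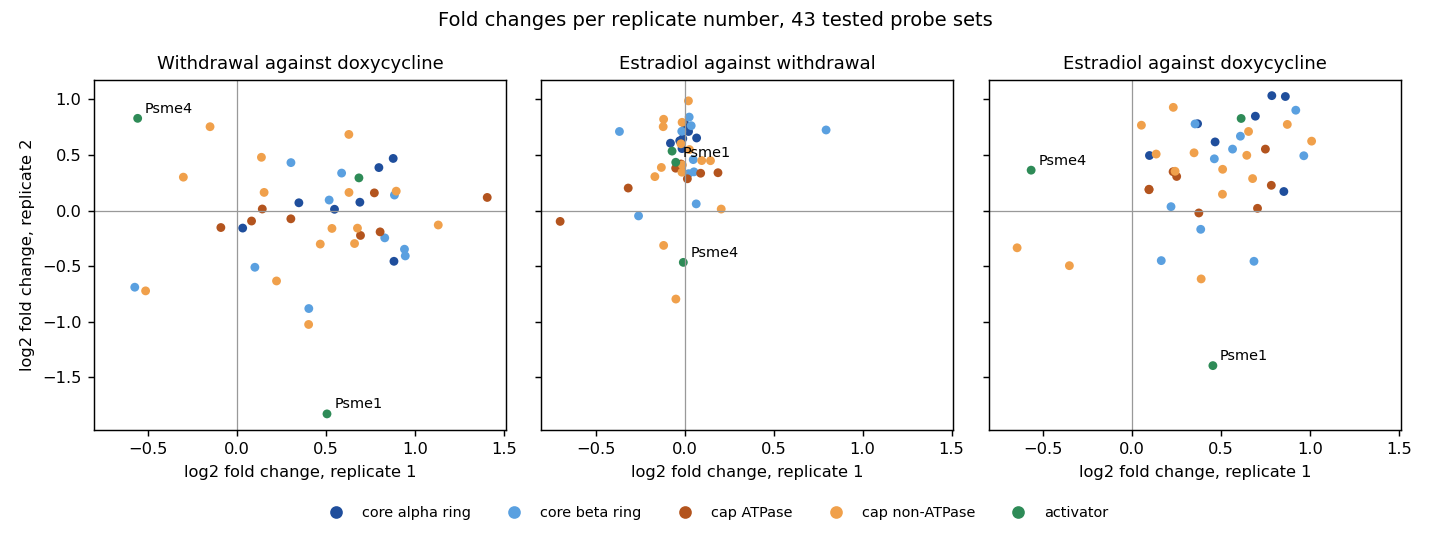
Log2 fold change in replicate 2 against that in replicate 1 for the 43 tested proteasome probe sets, 1 panel per comparison. In the withdrawal panel 37 of 43 points lie right of 0, on both sides of it vertically (medians 0.53 and -0.07), in the middle panel they lie near 0 horizontally and mostly above it vertically (medians -0.01 and 0.45), and in the last panel most lie above 0 on both axes.

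Other genes of the pathway were read from lists of ubiquitin and delivery genes and of assembly factors and regulators. Of 27 tested probe sets for ubiquitin and its delivery, 18 were higher with estradiol than with doxycycline, with a median of 0.22, and of 16 for assembly factors and regulators 12 were higher, with a median of 0.20 (50.4% of all tested probe sets were higher). By limma 0 probe sets of either list passed in any comparison, and at an unadjusted p under 0.05 there were 4 and 1 for estradiol against doxycycline (14.8% and 6.25%, against 14% of all tested probe sets), 0 and 1 for withdrawal against doxycycline (4.37% of all) and 0 and 0 for estradiol against withdrawal (0.698% of all). Uchl5, a ubiquitin-trimming enzyme of the cap, had 111.2 and 91.4 on the estradiol arrays against 27.4 and 19.5 on the doxycycline arrays (1.27, SE 0.34, adjusted p = 0.255), and 93.8 and 31.6 on the withdrawal arrays. Cdc34, a ubiquitin-conjugating enzyme, stood at 0.95 (SE 0.32) and 0.62 (SE 0.25) in its 2 probe sets, and the shuttle Rad23b at 0.78 (SE 0.29) and 0.89 (SE 0.44). The second Cdc34 probe set carries the suffix r and was dim, with signals from 16.1 to 54.6. Those of Rad23b carry the suffixes i and f. Akirin2, which brings proteasomes into the nucleus, had 1225 and 1511 on the withdrawal arrays against 881.7 and 841.2 on the doxycycline arrays (0.64, SE 0.27, adjusted p = 0.925). Those values came from a probe set of suffix i. The gene's other probe set, of suffix f, overlapped, with 347.9 and 486.2 against 384.5 and 275.3 (0.31, SE 0.30). Ufd1, which helps extract tagged proteins, had 340.4 and 162.7 on the withdrawal arrays against 402.7 and 615.5 on the doxycycline arrays (-0.98, SE 0.44, adjusted p = 0.925). Its partner Vcp stood at -0.63 (SE 0.30) in 1 probe set, of suffix r, and at 0.15 (SE 0.32) in the brightest. For estradiol against withdrawal, the smallest unadjusted p in these lists was that of a Rad23b probe set at 0.75 (SE 0.44), from -0.07 in replicate 1 and 1.58 in replicate 2, while the gene's brighter probe set stood at 0.32 (SE 0.29). Uchl5 followed at 0.57 (SE 0.34), from 0.19 and 0.96, and all had an adjusted p of 1.00. Nfe2l1, a factor that induces proteasome genes, was looked at after its values were seen. Its brighter probe set had 680.2 and 911.5 on the doxycycline arrays, 462.2 and 840.7 on the withdrawal arrays and 424.9 and 551.3 on the estradiol arrays, and the other had 340.8 and 510.6, 314.4 and 239.4, and 320 and 245.9. For estradiol against doxycycline the first stood at -0.67 (SE 0.35, adjusted p = 0.430) and the other at -0.52 (SE 0.31, adjusted p = 0.469). In each, both estradiol arrays lay below both doxycycline arrays, as in 24.7% of all tested probe sets. Nfe2l2, from the same list, overlapped, with 280.5 and 210.8 on the estradiol arrays against 183.2 and 306.4 (0.03, SE 0.31). For withdrawal against doxycycline it stood at 0.31 (SE 0.31) and overlapped too.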

How the data were processed

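The deposited intensities were MAS5 signals made by the authors, per the submitters' processing notes. The version was not given in the sources used here. Trimmed means without 2% of the probe sets at each end lay between 150.09 and 150.1 on the arrays as deposited. Gene names came from the platform annotation. Arrays were brought to 1 trimmed mean, signals became log2(signal + 32), and 66 control probe sets and the lowest 40% by mean log2 signal were left out. A fold change on this scale understates that of dim probe sets. The remaining 7453 probe sets were fitted with limma 3.58.1 in R 4.3.3, with 1 mean per group over all 6 arrays, an intensity trend and 3 residual degrees of freedom. P-values were two-sided and adjusted by Benjamini-Hochberg, with a threshold of 0.05. Group lists are described by counts and medians, without a test. With 2 arrays a group, an exact permutation test of 1 value could not go below 0.333, and the number of arrays limits the precision.

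The members, the gene lists and the alternatives were chosen with earlier results of these data known. Every member could be named. Signals are given for the 2 highest and 2 lowest fold changes of core, cap and activators in each comparison, for Psmb5, Psmb6 and Psmb7, and for the activators. Of related genes, up to 4 a comparison with the smallest unadjusted p are named. The labels tie each replicate number to an extraction method, which may act as a batch, so values per number are given. Deviations from the group means correlated at -0.00727 (doxycycline and withdrawal), -0.0284 (doxycycline and estradiol) and 0.449 (withdrawal and estradiol) across probe sets. The fit was tested on simulated data. It called 13% of simulated 2-fold changes between withdrawal and doxycycline and 68.4% of 4-fold ones. No member reached a 2-fold change in any comparison, and changes of that size were mostly missed in the simulations. Alternatives were other pseudocounts, filters, quantile normalization, no trend, the replicate block, 1 probe set per gene and leaving out each array.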

Additional observations from a re-analysis of the deposited data

How the results depend on the processing

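Over the alternatives run (pseudocounts of 16 and 64, no filter, a stricter filter, quantile normalization, no intensity trend, the replicate block, 1 probe set per gene and each array left out), limma called 0 proteasome probe sets in each of the 3 comparisons. Over all 7453 probe sets it called some with 1 array left out: 131 and 133 for estradiol against doxycycline without withdrawal replicate 1 and 2 (smallest member adjusted p 0.0828 and 0.0832), 28 and 26 for estradiol and for withdrawal against doxycycline without doxycycline replicate 1, and 17 for estradiol against withdrawal without withdrawal replicate 1. With the replicate block, which pairs arrays by number, 0 members were called and the smallest adjusted p was 0.80 for withdrawal against doxycycline, 1.00 for estradiol against withdrawal and 0.215 for estradiol against doxycycline. A median was counted as moved when it shifted by more than the spread between replicate arrays, a criterion settled after the medians had been seen (0.21 for all members and 0.22 for core and for cap, 0.11 for activators). Leaving out single arrays moved the medians for withdrawal against doxycycline, which ranged from -0.0399 to 0.49 for all members, -0.0399 to 0.64 for the core, -0.0873 to 0.48 for the cap and -0.23 to 0.49 for the activators. For estradiol against withdrawal the medians moved as well, and the ranges were -0.033 to 0.42, -0.013 to 0.47, -0.0736 to 0.41 and -0.0698 to 0.23. For estradiol against doxycycline they were 0.40 to 0.47, 0.45 to 0.60, 0.29 to 0.45 and -0.28 to 0.26, where only the activator median moved. It also moved, to 0.043, with no filter on dim probe sets. The count of activators with both estradiol arrays above doxycycline was 1 of 3, and, as an alternative chosen after seeing the data, ranged from 1 to 2 with 1 doxycycline array left out. That count was 34 to 37 of 43 for all members, 14 to 15 for the core and 19 to 20 for the cap. Over all tested probe sets the share was 27% with both doxycycline arrays. It was 38.8% without doxycycline replicate 2 and 38.1% without doxycycline replicate 1.

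Of all 43 tested members, 1 changed sign under the settings that keep all arrays (Psmd1, for withdrawal against doxycycline, with quantile normalization). Leaving out withdrawal replicate 2 changed the sign of 23 members for estradiol against withdrawal and of 8 for withdrawal against doxycycline, and leaving out withdrawal replicate 1 that of 3 and 14. No left-out array changed the sign of more than 3 for estradiol against doxycycline. Ranges with 1 array left out follow for most of the probe sets given in full that changed sign, and the rest are named after them. For withdrawal against doxycycline the ranges were -0.88 to 0.40 for Psmb2, -1.06 to 0.44 for Psmd4, -0.10 to 0.64 for the dimmer Psmb5 probe set, -0.24 to 0.82 for Psmb6, -1.40 to 0.0713 for Psme1 and -0.41 to 0.68 for Psme4. For estradiol against withdrawal they were -0.11 to 0.97 for Psmb3, -0.52 to 0.22 for the dimmer Psmb5 probe set, -0.36 to 0.70 for Psmb6, -0.0303 to 0.83 for Psmb7, -0.0359 to 1.04 for Psmd13, -0.15 to 0.93 for Psmd3, -0.24 to 0.62 for Psme1, -0.0698 to 0.53 for Psme3 and -0.78 to 0.30 for Psme4. For estradiol against doxycycline they were -0.35 to 0.0648 for the lower Psmb1 probe set, -0.19 to 0.42 for the dimmer Psmb5 probe set, -1.21 to 0.26 for Psme1 and -0.41 to 0.21 for Psme4. In that comparison Psmb2 also changed sign without estradiol replicate 1, and Psmd4 without estradiol replicate 2. For estradiol against withdrawal the lower Psmb1 probe set also changed sign without estradiol replicate 1. Signals near the filter, as for the dim probe sets of Psmb4, Psmb5 and Psmc4, limit those values, and the cause of the changes was not tested.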
